A study of Mus musculus with 8 samples.

Results

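The calcineurin, NFAT and TRPC channel genes described here are 9 of the 20661 gene symbols that the array carries, matched through the RefSeq transcript or gene name of each probe. They are the channel gene Trpc6, the calcineurin subunit genes Ppp3ca, Ppp3cb and Ppp3r1, the calcineurin inhibitor gene Rcan1, and the transcription factor genes Nfatc1, Nfatc2, Nfatc3 and Nfatc4. None of the members (0 of 9) differed between NPRA-/- and NPRA+/+ myocardium past an adjusted p of 0.05, under the main analysis or under any of 25 other settings. Fitted log2 changes of the representative probes, NPRA-/- over NPRA+/+, lay between -0.33 for Ppp3r1 and 0.23 for Nfatc1.

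The samples were myocardium, the muscle of the heart, from untreated male mice. The arrays labelled NPRA-/- (3) carry a deletion of the natriuretic peptide receptor NPRA, encoded by Npr1, made from a floxed allele (NprAflox/flox) and heart-specific per the series title. The arrays labelled NPRA+/+ (5) are called wild type, and the sources used here do not say whether they carry the floxed allele without deletion. The Cre line, the cell type it acts in, and the ages of the mice are not stated either. The series text mentions m6A, a methyl mark on RNA, but the series is typed as expression profiling, so signals were read as transcript levels. The question was which members differ in heart muscle when NPRA is deleted.

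Calcineurin is a calcium-dependent phosphatase with a catalytic subunit, a regulatory subunit and calmodulin. In heart muscle, calcium entry through channels such as TRPC6 activates it. It then removes phosphates from NFAT proteins, which move to the nucleus and act with GATA4 and MEF2 factors on genes of hypertrophic growth. NPRA makes cyclic GMP, and the cyclic GMP-dependent kinase phosphorylates TRPC6 and is known to restrain this pathway.

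Signals are given as levels, meaning log2 of the background-subtracted signal minus log2 of the same array's 75th percentile, so they compare arrays for 1 probe and not 1 probe with another. The 75th percentile lay between 775 and 1253 intensity units, and on each array 79.5% to 92.6% of probes passed the scanner's flag for a signal well above background. The Npr1 probe was near background, at -6.42, -5.53 and -5.59 on NPRA-/- arrays, against -4.77, -6.14, -6.55, -6.00 and -5.93 on NPRA+/+ arrays. Its fitted change was 0.03 ± 0.40 (SE; limma, adjusted p = 0.978). Whether this probe lies in the deleted part is not given, so it does not check the labels, and every direction below rests on them. All 8 of 8 cardiomyocyte marker genes, most of them contractile genes, passed that flag on every array. Their summed level, on the linear scale, was 569 to 1560 on NPRA-/- arrays and 310 to 1249 on NPRA+/+ arrays, highest in both genotypes on the replicate 1 array. Those replicate 1 arrays stand apart from the rest, and each was scanned on a day of its own (scan days 3 and 4). Scan day 1 held replicates 2 and 3 of both genotypes, scan day 2 held NPRA+/+ replicates 4 and 5, and only scan day 1 held both genotypes. Mesothelial markers, of the cell layer that covers the heart, summed to 1.24 to 1.81 on NPRA-/- and 0.691 to 1.02 on NPRA+/+ arrays, with 3 of 7 well above background on every array, 1 of 7 called by limma as higher and a median relative change of 1.85. Fibroblast markers summed to 88.1 to 112 on NPRA-/- and 75.1 to 85.1 on NPRA+/+ arrays, with 0 of 5 called and a median relative change of 0.01. Among the fibroblast markers Dcn, the brightest, had a fitted change of 0.41, and Pdgfra and Tcf21 had -0.23 and -0.03. Both sums were higher on every NPRA-/- array than on any NPRA+/+ array, and the part of these cells in the results below was not tested. In bulk tissue, fewer cells of a type and less RNA per cell cannot be told apart.

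The 9 genes were read by 12 probes, since Nfatc1, Nfatc2 and Nfatc3 had 2 each. All 12 passed the filter on dim probes, and 10 cleared background on every one of the 8 arrays. The limma test called 0 of the 12 at an adjusted p of 0.05, while 0.348% of the 35329 probes tested were called (0.32% higher and 0.0283% lower). With the replicate number as a block, limma called 0 of all probes, although 7265 were higher and 523 lower at a p under 0.05 before adjustment. Before adjustment the main analysis also gave 0 of 12 member probes under 0.05, against 19.7% of all probes. On 1 of the 12 probes the genotypes did not overlap, against 15.4% of all probes. Taking all probes together, NPRA-/- signals were shifted against NPRA+/+ by a median log2 change of 0.21, which was 0.63 among the dimmest of 5 equal groups of probes and 0.05 among the brightest. A change with that 0.21 taken away is called relative below, and the p-values test the fitted change against 0. The median relative change of the 9 members was -0.19, and their median fitted change was 0.02. After quantile normalization, which brought the median of all probes to 0.00, the median of the members was -0.09.

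**Figure D1:**
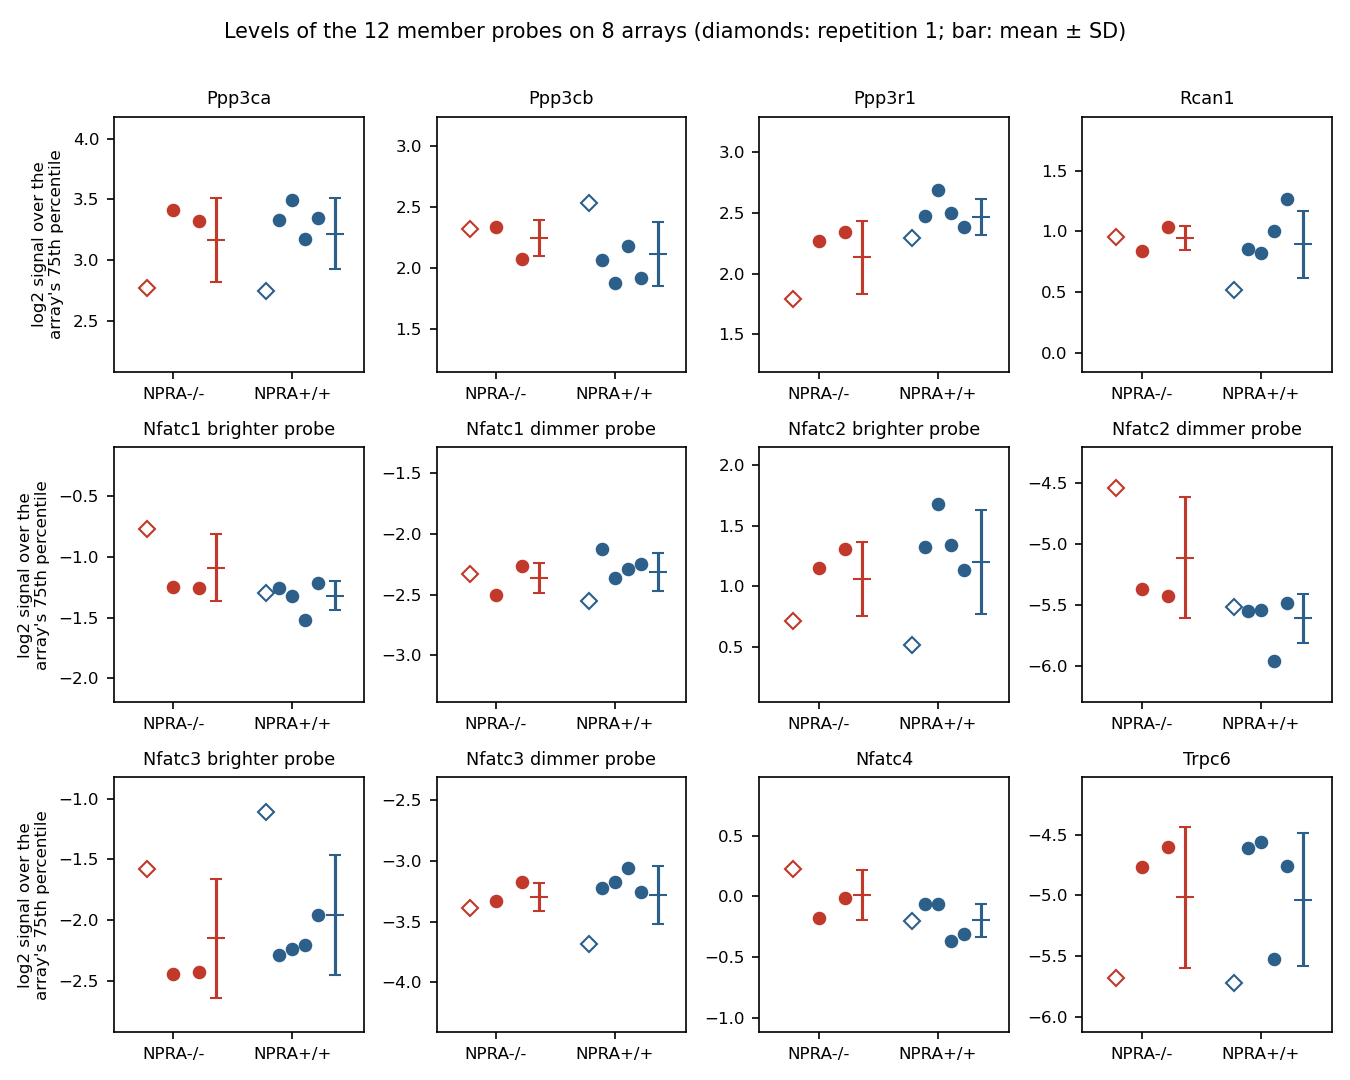
Level of each of the 12 member probes (log2 signal over the array's 75th percentile, own scale per panel) on NPRA-/- arrays at left and NPRA+/+ arrays at right, with a point per array, a diamond for replicate 1 and a bar for the mean ± SD. The dimmer Nfatc2 probe is the panel in which the genotypes do not overlap, and the replicate 1 arrays are lowest in both genotypes for Ppp3ca and Trpc6.

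Trpc6 encodes a calcium-permeable channel opened by diacylglycerol, downstream of receptors that activate phospholipase C. Its probe (A_55_P1966644) was dim and cleared background on 2 of the 3 NPRA-/- and 4 of the 5 NPRA+/+ arrays. The level was -5.68, -4.77 and -4.60 in NPRA-/- hearts, against -5.72, -4.61, -4.56, -5.52 and -4.76 in NPRA+/+ hearts. The replicate 1 arrays were the lowest of each genotype, NPRA+/+ replicate 4 was nearly as low, and the genotypes covered the same range. Means were -5.02 ± 0.58 (SD, n = 3) in NPRA-/- and -5.03 ± 0.55 (SD, n = 5) in NPRA+/+ hearts, a fitted change of 0.02 ± 0.36 (SE; limma, adjusted p = 0.985). The 95% interval, -0.81 to 0.85, leaves room for a change of nearly 2-fold in either direction. After quantile normalization the change was -0.52, with a 95% interval of -1.45 to 0.41, and against probes of like signal it was -0.61. Within scan day 1 the fitted change was -0.10 ± 0.10 (limma, adjusted p = 0.545), in a setting that called 16.9% of all probes and no member. The smallest adjusted p of any member in any setting belonged to Trpc6, 0.0808 with quantile normalization within scan day 1.

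Ppp3ca and Ppp3cb encode the alpha and beta catalytic subunits of calcineurin, of which the beta form is known in mice to be needed for hypertrophic growth under pressure load. Ppp3ca (A_55_P1952738) had levels of 2.77, 3.41 and 3.32 in NPRA-/- hearts, against 2.74, 3.33, 3.50, 3.17 and 3.35 in NPRA+/+ hearts. Replicate 1 was the lowest array of each genotype, and the remaining arrays overlapped. The fitted change of Ppp3ca was -0.05 ± 0.22 (SE; 95% interval -0.55 to 0.45; limma, adjusted p = 0.929), and within scan day 1 it was -0.05 ± 0.11. Levels of Ppp3cb (A_52_P306396) were 2.32, 2.34 and 2.08 in NPRA-/- hearts, against 2.54, 2.07, 1.88, 2.18 and 1.91 in NPRA+/+ hearts. All 3 NPRA-/- values lay between the lowest and the highest NPRA+/+ value, and here NPRA+/+ replicate 1 was the highest of all. The fitted change of Ppp3cb was 0.13 ± 0.18 (SE; 95% interval -0.28 to 0.54; limma, adjusted p = 0.740), and within scan day 1 it was 0.24 ± 0.14.

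Ppp3r1 encodes calcineurin B, the calcium-binding regulatory subunit that both catalytic subunits need. Its probe (A_55_P1990755) came nearest to a difference among the representative probes. The level was 1.79, 2.27 and 2.34 in NPRA-/- hearts, against 2.29, 2.47, 2.69, 2.50 and 2.39 in NPRA+/+ hearts. Only NPRA-/- replicate 3 lay above an NPRA+/+ array, replicate 1, and NPRA-/- replicate 1 was the lowest of the 8. Means were 2.14 ± 0.30 (SD, n = 3) in NPRA-/- and 2.47 ± 0.15 (SD, n = 5) in NPRA+/+ hearts. The fitted change of -0.33 ± 0.17 (SE; 95% interval -0.72 to 0.05) did not pass the test (limma, adjusted p = 0.320). It was negative relative to all probes (-0.54), against probes of like signal (-0.38) and after quantile normalization (-0.34). The 95% interval of the relative change, with the shift of all probes taken as fixed, was -0.92 to -0.15, and no p was computed for it. The interval of the fitted change reached the 0.05 shift of the brightest group of probes, to which this probe belongs. Within scan day 1 the fitted change was -0.27 ± 0.12 (limma, adjusted p = 0.185). Its smallest adjusted p over the settings was 0.128, with array weights, where 27.1% of all probes were called.

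Rcan1 encodes a protein that binds and inhibits calcineurin. One of its transcripts starts within the gene and is known as a target of NFAT, so its level is widely used as a readout of calcineurin activity. The 250 bases before each of both Rcan1 starts in RefSeq are shown because the 2 starts differ in the letters of the NFAT core. They lie on the minus strand of GRCm38.p6, at chr16:92400079-92400328 for the inner start and at chr16:92466170-92466419 for the upstream start. They are written 5′ to 3′ in the direction of the gene, with the NFAT core GGAAA, or TTTCC where it lies on the other strand, in capitals.
Rcan1 inner start: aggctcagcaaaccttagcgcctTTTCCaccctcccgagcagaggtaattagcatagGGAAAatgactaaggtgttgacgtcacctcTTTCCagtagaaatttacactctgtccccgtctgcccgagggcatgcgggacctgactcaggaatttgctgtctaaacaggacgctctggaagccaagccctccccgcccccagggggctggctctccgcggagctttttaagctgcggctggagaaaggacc
Rcan1 upstream start: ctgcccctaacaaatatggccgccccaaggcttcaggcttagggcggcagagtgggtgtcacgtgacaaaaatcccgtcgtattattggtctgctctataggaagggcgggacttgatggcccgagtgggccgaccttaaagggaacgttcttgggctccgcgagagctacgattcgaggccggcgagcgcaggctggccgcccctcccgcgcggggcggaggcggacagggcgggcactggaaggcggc
The core was found 3 times before the inner start and 0 times before the upstream start. Of 32851 such windows in RefSeq, 55.6% held it at least once and 6.39% at least 3 times, so its presence alone is common. Among the members, 10 windows of 7 genes were available and 6 held the core. Besides the inner Rcan1 start, Nfatc4, Ppp3cb and 1 Nfatc2 window had 3 matches each. The other Nfatc2 window and 1 Nfatc3 window had 1 each. The other Nfatc3 window, Ppp3r1 and Trpc6 had 0. A match of letters is not a binding site, and no binding data were used here.

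The Rcan1 probe (A_52_P617327) had levels of 0.95, 0.84 and 1.04 in NPRA-/- hearts, against 0.51, 0.86, 0.82, 1.01 and 1.27 in NPRA+/+ hearts. The NPRA-/- values lay within the NPRA+/+ range, whose lowest value was replicate 1 and whose highest was replicate 5. Means were 0.94 ± 0.10 (SD, n = 3) in NPRA-/- and 0.89 ± 0.28 (SD, n = 5) in NPRA+/+ hearts. The fitted change was 0.05 ± 0.18 (SE; 95% interval -0.36 to 0.46; limma, adjusted p = 0.912), and against probes of like signal it was 0.00. Within scan day 1 it was 0.10 ± 0.11 (limma, adjusted p = 0.552). Which of the Rcan1 transcripts the probe reads, the inner or the upstream one, could not be read from the sources used here. The genes whose levels followed Rcan1 most closely over the 8 arrays were Cpeb4, Zfp637 and Golm1, among 14308 genes compared. After each gene's own mean was taken away, their root mean square difference from Rcan1 was 0.074, 0.075 and 0.076 on the log2 scale. The genes compared were well above background on all 8 arrays and varied not much less than Rcan1. These are the closest of 14308 over only 8 arrays, and whether they are regulated with Rcan1 was not tested.

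**Figure D2:**
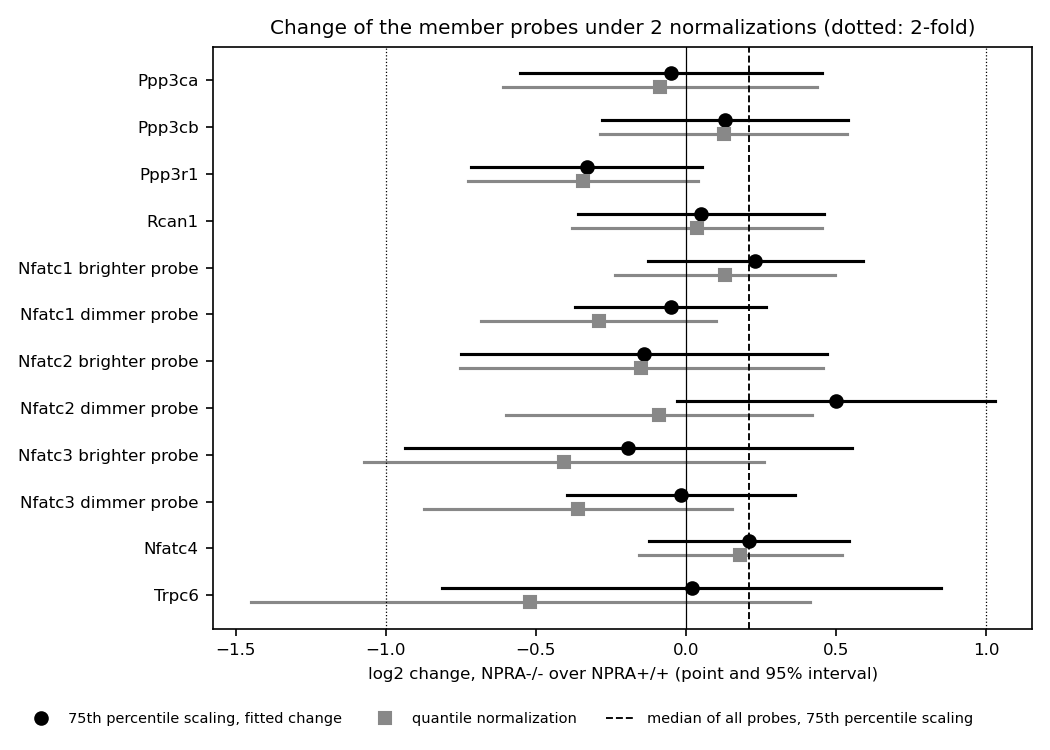
Fitted log2 change, NPRA-/- over NPRA+/+, of each member probe with its 95% interval, under scaling to the 75th percentile and under quantile normalization, where the dotted lines mark a 2-fold change and the dashed line the median of all probes. Every interval includes 0, and that of Trpc6 after quantile normalization, -1.45 to 0.41, is among those that pass a 2-fold line. The interval of Ppp3r1 under scaling to the 75th percentile lies below the dashed line.

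The NFAT genes encode 4 calcium-regulated transcription factors that calcineurin dephosphorylates. Nfatc1 is best known in the heart for its role in the endocardium that forms the valves. Its brighter probe (A_51_P517870) stood at -0.77, -1.25 and -1.25 in NPRA-/- hearts, against -1.29, -1.26, -1.32, -1.52 and -1.21 in NPRA+/+ hearts. NPRA-/- replicate 1 was high and the other 7 arrays lay close together and overlapped. The fitted change of 0.23 ± 0.16 (SE; 95% interval -0.13 to 0.59; limma, adjusted p = 0.456) was 0.04 ± 0.09 within scan day 1, which does not hold that array. The dimmer Nfatc1 probe (A_51_P220135) ranged from -2.50 to -2.27 in NPRA-/- and from -2.55 to -2.12 in NPRA+/+ hearts. Its fitted change was -0.05 ± 0.14 (SE; limma, adjusted p = 0.881).

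Nfatc2 encodes NFAT1, a member studied mainly in lymphocytes and also present in heart muscle. The brighter Nfatc2 probe (A_55_P1967978) had levels of 0.72, 1.15 and 1.31 in NPRA-/- hearts, against 0.52, 1.33, 1.68, 1.34 and 1.14 in NPRA+/+ hearts. Replicate 1 was the lowest in each genotype, and the others overlapped. Its fitted change was -0.14 ± 0.27 (SE; 95% interval -0.75 to 0.47; limma, adjusted p = 0.820), and within scan day 1 it was -0.27 ± 0.16.

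The dimmer Nfatc2 probe (A_52_P628171), listed with another RefSeq transcript of the gene, stood at -4.54, -5.37 and -5.43 in NPRA-/- hearts, against -5.51, -5.55, -5.54, -5.97 and -5.49 in NPRA+/+ hearts. All NPRA-/- arrays lay above all NPRA+/+ arrays, by a wide margin only on replicate 1, and this was so for 14.1% of all probes. Its signal cleared background on 3 of the 3 NPRA-/- and 3 of the 5 NPRA+/+ arrays. The fitted change of 0.50 ± 0.23 (SE; 95% interval -0.03 to 1.03) did not pass the test (limma, adjusted p = 0.280). Against probes of like signal the change was -0.13, and after quantile normalization it was -0.09 and the genotypes overlapped, where 6.9% of all probes had no overlap. The 2 Nfatc2 probes thus had fitted changes of opposite sign, and neither was called.

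Nfatc3 is a member that, in mice, is known to be needed for the full hypertrophic response to calcineurin. Both Nfatc3 probes are listed with the same RefSeq transcript. The brighter one (A_66_P117659) had levels of -1.58, -2.44 and -2.43 in NPRA-/- hearts, against -1.11, -2.29, -2.24, -2.20 and -1.96 in NPRA+/+ hearts. The replicate 1 arrays were the highest of each genotype. Its fitted change was -0.19 ± 0.32 (SE; 95% interval -0.94 to 0.55; limma, adjusted p = 0.795), and within scan day 1, without those arrays, -0.17 ± 0.09 (limma, adjusted p = 0.238). The dimmer Nfatc3 probe (A_52_P333419) stood at -3.39, -3.33 and -3.17 in NPRA-/- hearts, against -3.69, -3.23, -3.17, -3.05 and -3.26 in NPRA+/+ hearts. On this probe the replicate 1 arrays were the lowest of each genotype, the opposite of the brighter probe, and its fitted change was -0.02 ± 0.17 (SE; limma, adjusted p = 0.968).

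The summed level of T cell markers was, like the brighter Nfatc3 probe, highest on the replicate 1 array of each genotype, but the other 6 arrays did not share an order. The sum was 2.10, 0.785 and 0.704 on the linear scale on NPRA-/- arrays, against 3.09, 0.609, 0.478, 0.670 and 0.515 on NPRA+/+ arrays. Cd4, Cd3e and Lck were highest on replicate 1 in both genotypes, while Cd3d was lowest of all on NPRA+/+ replicate 1 (-5.98) and Cd8a lowest of the NPRA-/- arrays on replicate 1 (-4.09). Of the 6 T cell markers, 4 were well above background on all arrays, and Cd3g, a chain of the T cell receptor complex, on none (0). The sum of fast skeletal muscle markers was also highest on the replicate 1 arrays, at 1.00, 0.641 and 0.537 on NPRA-/- arrays, against 2.25, 0.525, 0.542, 0.491 and 0.515 on NPRA+/+ arrays. Myh4, a fast myosin heavy chain, carried most of it on NPRA+/+ replicate 1 (level 0.84), while Myh1, another one, was lowest on replicate 1 in both genotypes, at -7.13 in NPRA-/- and -7.63 in NPRA+/+ hearts. The part of either cell type in the Nfatc3 signal was not tested.

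Nfatc4 encodes NFAT3, the member first linked to heart growth through its binding to GATA4. Its probe (A_52_P342159) had levels of 0.22, -0.18 and -0.01 in NPRA-/- hearts, against -0.20, -0.06, -0.06, -0.36 and -0.31 in NPRA+/+ hearts. NPRA-/- replicates 1 and 3 were above every NPRA+/+ array, and replicate 2 was below 2 of them. Means were 0.01 ± 0.20 (SD, n = 3) in NPRA-/- and -0.20 ± 0.14 (SD, n = 5) in NPRA+/+ hearts. The fitted change was 0.21 ± 0.15 (SE; 95% interval -0.12 to 0.54; limma, adjusted p = 0.471), as large as the shift of all probes, so the relative change was 0.00. Against probes of like signal, whose shift was 0.05, the change was 0.16, and after quantile normalization it was 0.18. Within scan day 1 the fitted change was -0.04 ± 0.10.

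The replicate 1 arrays of both genotypes departed from their own genotype in the same direction on 9 of the 12 member probes, against 72.3% of all probes. Both lay below every other array of either genotype for Ppp3ca, the brighter Nfatc2 probe, the dimmer Nfatc3 probe and Trpc6. This was so for 4 of 12 against 17.4% of all probes. For Ppp3r1 each was the lowest within its own genotype, but NPRA-/- replicate 2 also lay below NPRA+/+ replicate 1. For the brighter Nfatc3 probe both lay above every other array of either genotype, 1 of 12 against 19.7% of all probes. For Trpc6 the replicate 1 array minus the mean of the other arrays was -0.997 in NPRA-/- and -0.860 in NPRA+/+ hearts. For the brighter Nfatc3 probe it was 0.85 in NPRA-/- and 1.07 in NPRA+/+ hearts. These within-genotype gaps are larger than the fitted genotype change of any member probe. After quantile normalization the direction was shared on 8 of the 12 probes.

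**Figure D3:**
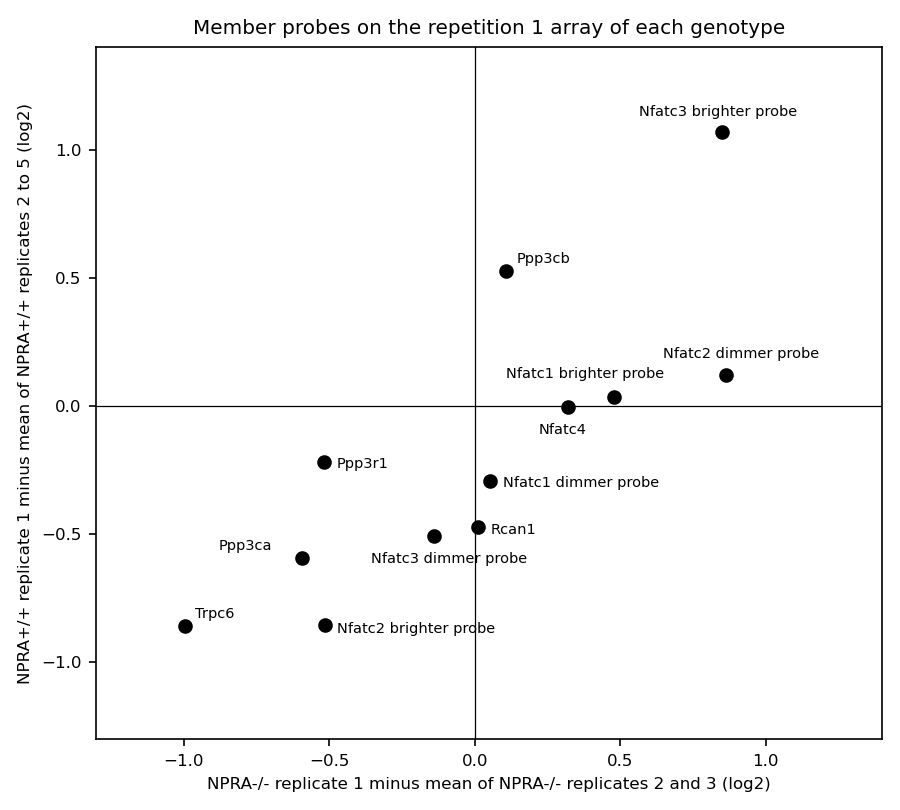
Level on the replicate 1 array minus the mean of the other arrays of the same genotype (log2), NPRA-/- on the horizontal and NPRA+/+ on the vertical axis, with a point for each of the 12 member probes. Trpc6 lies at the lower left, near -0.997 and -0.860, and the brighter Nfatc3 probe at the upper right, near 0.85 and 1.07.

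Beside the members, 54 further genes of the pathway were followed in 8 lists by their roles. Of these, 53 were on the array, 52 were tested and limma called 0, while an unadjusted p under 0.05 was met by 3 that were higher and 2 that were lower, against 18.3% and 1.36% of all probes. The genotypes did not overlap for 8 of the 52, a share like the 15.4% of all probes. The median relative change of the 52 genes was -0.11, and the medians of the 8 lists lay between -0.18 for the cyclic GMP list and 0.09 for the other TRPC channels.

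Among the other channels of the family, Trpc5, which encodes a channel of receptor-driven calcium entry, had the most positive relative change of the 52 genes. The dim Trpc5 probe stood at -5.76, -4.82 and -4.77 in NPRA-/- hearts, against -6.51, -5.79, -6.09, -5.85 and -6.10 in NPRA+/+ hearts, and cleared background on 2 of the 3 and 4 of the 5 arrays. Every NPRA-/- array lay above every NPRA+/+ array, as was so for 14.1% of all probes. Its relative change was 0.74 ± 0.27 (SE) with an adjusted p of 0.115 by limma for the fitted change, and it was 0.32 against probes of like signal. Without both replicate 1 arrays limma gave an adjusted p of 0.0229 for Trpc5, in a setting that called 11.7% of all probes. Limma also gave 0.0245 within scan day 1, where 16.9% of all probes were called. With array weights it gave 0.0017, where 27.1% were called. Trpc4, a close relative of Trpc5, had a relative change of 0.16 ± 0.12 (limma, adjusted p = 0.146). A Trpc4 probe passed with array weights (limma, adjusted p = 0.0179). Trpc1, also expressed in heart muscle, was at 0.01 ± 0.13. Both probes of Trpc7, a close relative of Trpc6, were well above background on no array (0 of 8), and Trpc2 was not matched to a probe.

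Of the receptor and store calcium entry list, which holds G proteins, phospholipase C, calcium release channels and their partners, 0 of 8 genes passed the test. Orai1, the pore of store-operated calcium entry, was at 0.09, 0.16 and -0.01 in NPRA-/- hearts, against 0.03, -0.53, -0.83, -0.42 and -1.02 in NPRA+/+ hearts. Only NPRA+/+ replicate 1 reached the NPRA-/- range. The relative change of Orai1 was 0.42 ± 0.23 (SE; limma, adjusted p = 0.190). Its adjusted p was 0.0340 without NPRA+/+ replicate 1, where limma called 3901 probes higher and 187 lower. By limma it was 0.0450 within scan day 1 and 0.0065 with array weights, where 16.9% and 27.1% of all probes were called. A second Orai1 probe, listed with the same transcript, had a fitted change of -0.10 ± 0.19, against 0.63 ± 0.23 for the first. Plcb1, a phospholipase C that responds to Gq, was at 0.14 ± 0.15.

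The NFAT partner list included the most negative relative change of the 52 genes, that of Mef2a, a MADS-box factor that acts with NFAT in muscle. Its brighter probe had levels of 1.55, 2.34 and 2.29 in NPRA-/- hearts, against 2.68, 2.91, 2.80, 2.86 and 3.36 in NPRA+/+ hearts. All NPRA-/- arrays were below all NPRA+/+ arrays, as were 1.29% of all probes. The relative change of -1.07 ± 0.23 (SE) did not pass the test on the fitted change (limma, adjusted p = 0.105). Mef2a passed it without NPRA+/+ replicate 1 (limma, adjusted p = 0.0494), where 3901 probes were called higher and 187 lower. It passed within scan day 1 (limma, adjusted p = 0.0370), where 16.9% of all probes were called. With array weights it also passed (limma, adjusted p = 0.00926), where 27.1% of all probes were called. A second Mef2a probe, listed with the same transcript, had a fitted change of -0.14 ± 0.25, against -0.86 ± 0.23 for the first. Mef2c, another factor of this family, was at -0.01 ± 0.16.

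**Figure D4:**
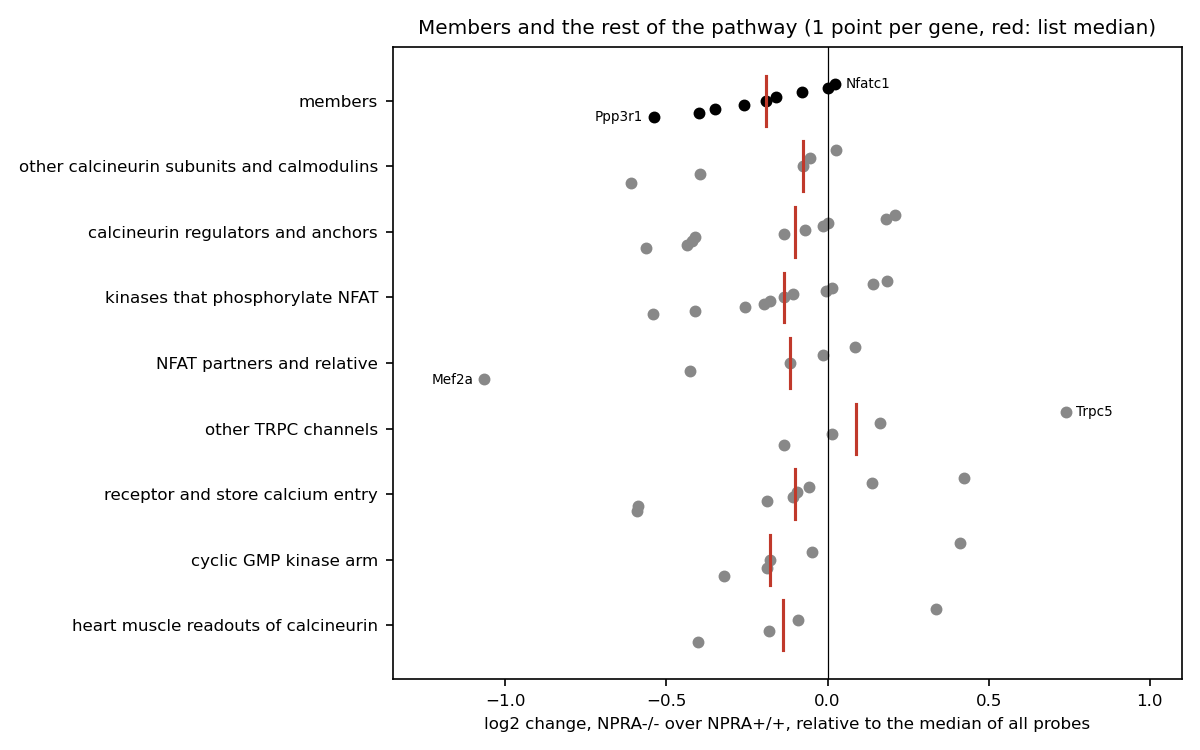
Relative log2 change, NPRA-/- over NPRA+/+ with the median of all probes taken away, of each member and of each tested gene of the 8 pathway lists, with a point per gene and a red mark for each list's median. Mef2a at -1.07 and Trpc5 at 0.74 are the lowest and the highest point, and no gene passed the limma test in the main analysis.

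Among calcineurin's own remaining parts, Ppp3cc, the gamma catalytic subunit, had a relative change of -0.40 ± 0.22. Calm2, a calmodulin gene, had a relative change of 0.03 ± 0.12 with all NPRA-/- arrays above, as was so for 14.1% of all probes. Ppp3r2, a regulatory subunit known mainly from testis, was at -0.61 ± 1.24. Its level was -3.90, -4.86 and -4.83 in NPRA-/- hearts, against -0.23, -5.99, -6.07, -3.70 and -4.65 in NPRA+/+ hearts, so that NPRA+/+ replicate 1 stood far above the rest. Within scan day 1, without that array, its fitted change was 1.19 ± 0.09 (limma, adjusted p = 0.0238), in a setting that called 16.9% of all probes. Without both replicate 1 arrays the relative change of Ppp3r2 was 0.06 (limma, adjusted p = 0.835).

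Of the calcineurin regulators and anchors, 0 of 10 were called. Akap5, which anchors calcineurin near calcium channels, had a relative change of -0.56 ± 0.14 (limma, adjusted p = 0.228), and Cabin1, which encodes a calcineurin-binding inhibitor, of 0.00 ± 0.12. Among 11 genes of kinases that phosphorylate NFAT, Mapk8, which encodes the stress kinase JNK1, was at 0.19 ± 0.18 and Dyrk2 at 0.01 ± 0.13. The other 2 Mapk8 probes had fitted changes of -0.25 ± 0.23 and 0.04 ± 0.29, against 0.39 ± 0.18 for the first. In the cyclic GMP list, Pde5a, the phosphodiesterase that degrades cyclic GMP, was at 0.41 ± 0.70, and Rgs2, a brake on Gq signalling that the cyclic GMP kinase activates, at -0.05 ± 0.22. A second Rgs2 probe had a fitted change of -0.16 ± 0.15, against 0.16 ± 0.22 for the first. Pde5a stood at 3.98 and 4.24 on replicate 1 of NPRA-/- and of NPRA+/+, and between 1.46 and 2.40 on every other array.

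Genes often read as outputs of calcineurin in heart muscle were Nppb and Nppa, the B-type and atrial natriuretic peptide genes, at relative changes of 0.34 ± 0.34 and -0.09 ± 0.15. Of the 4 genes in that list, 0 were called by limma, and the smallest adjusted p was 0.427.

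The precision of the arrays bounds what could be seen for the members. The 95% interval of the fitted change lay within 2-fold in both directions for 11 of 12 member probes, against 61.0% of all probes tested. The exception was the dimmer Nfatc2 probe, whose upper bound was 1.03. Taken relative to the median of all probes, or after quantile normalization, the interval lay within 2-fold for 10 of 12. Across the settings the relative change of Ppp3r1, Ppp3ca, Nfatc2 and Nfatc3 was negative in every one, and that of the other 5 members took both signs. The fitted change was negative in every setting for Ppp3r1 only. It was negative in most settings for Ppp3ca, Nfatc2 and Nfatc3. Without NPRA-/- replicate 1 it was 0.15 for Ppp3ca, with a gene's probes averaged 0.18 for Nfatc2, and without NPRA+/+ replicate 1 0.02 for Nfatc3. The dimmer Nfatc2 probe had a relative change of 0.29 in the main analysis.

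**Figure D5:**
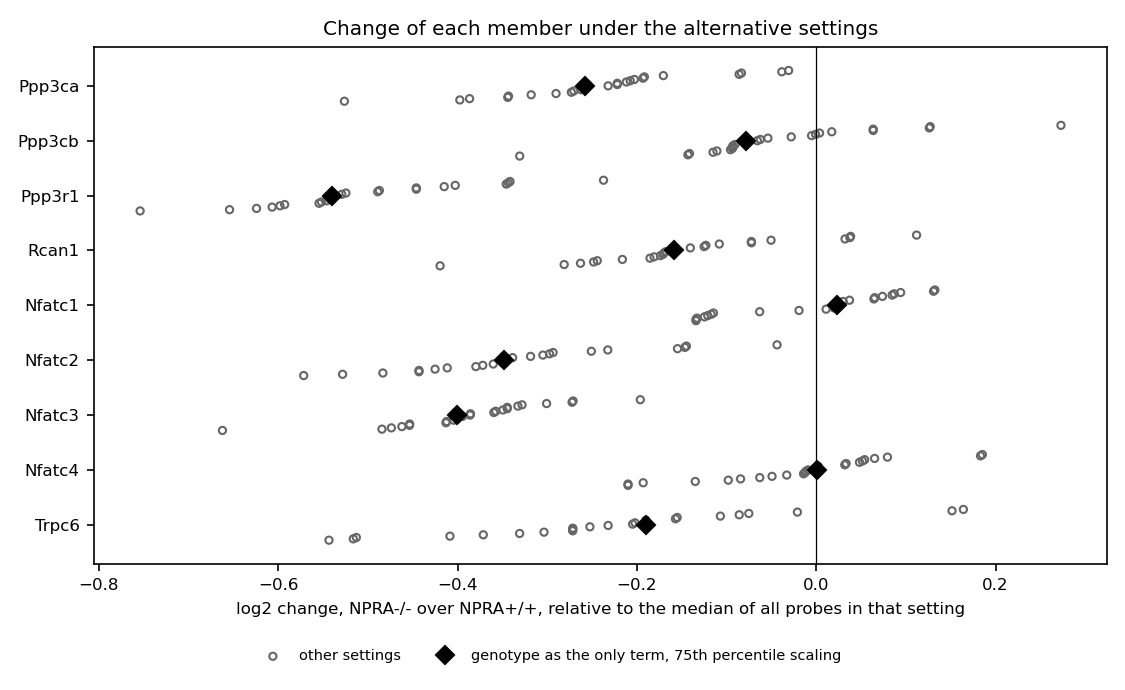
Relative log2 change of each of the 9 members, NPRA-/- over NPRA+/+, with a filled diamond for the main analysis and open points for the alternative settings, which include leaving out each array. Ppp3r1 runs from -0.75 to -0.24, while Rcan1 runs from -0.42 to 0.11 across 0.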

How the data were processed

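Total RNA was labelled with Cy3 and hybridised to 1-colour Agilent arrays, per the labels' protocols. Per the file headers, the deposited scanner files hold linear intensity per spot, background-subtracted within each array. The scanner software was Agilent Feature Extraction 11.0.1.1, per the submitters' processing notes. The authors' series table holds log2 values of unstated scale, centring and normalization. Its columns ranked the probes as their arrays did (rank correlation at least 0.999), each had a median of 7.04, and it served as an alternative. Of its 39485 entries, 39429 matched a probe.

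Control spots were dropped, outlier spots were treated as missing, and spots of a probe were averaged on the log2 scale after each array's 75th percentile was subtracted. Probes well above background on at least 3 of 8 arrays were tested (35329), by lmFit and eBayes of limma 3.58.1 (R 4.3.3). Tests were two-sided, and p-values were adjusted by Benjamini-Hochberg over every tested probe, with a threshold of 0.05. No spot was saturated (0). The probe with the highest mean represented its gene. Probes were named through RefSeq (GRCm38.p6), which gave 27236 of 39429 probes 1 symbol. The array design is of another build, so genes have no coordinates here. Promoter windows are RefSeq's. Those of 2 members, Nfatc1 and Ppp3ca, were not used here. The members and the lists were chosen with earlier results of these data known.

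All members are described. With no call among them, the pathway genes named are the 2 of each list with the smallest unadjusted p, plus other TRPC channels and calcineurin subunits, and 2 genes that this rule names are not reported here. The labels call the arrays biological repetitions but name no animal, so the p-values rest on the spread between these samples, which may be technical. The main analysis had genotype as its only term and no pairs. Only in the alternative with a replicate block by repetition number were arrays of equal number in the 2 genotypes taken as pairs. Their deviations from the genotype means correlated across probes (0.63, 0.28 and 0.36, each over 0.1). Unequally numbered arrays passed too. Every pair of NPRA-/- replicate 2 or 3 with an NPRA+/+ array other than replicate 1 lay between 0.12 and 0.36. The check therefore does not single out pairs of equal number. The source names number the NPRA+/+ arrays differently, with replicates 1, 2 and 3 sharing number 1 and replicates 4 and 5 given 2 and 3. Whether arrays that share a number come from the same animal is not stated. The 5 NPRA+/+ arrays may thus be fewer independent samples, and each n counts arrays. The fit was tested on simulated data, drawn with each probe's own spread and with no shift or array effect. It called 42% of the probes given a log2 change of 1 and 70% of those given 2. Of its 160 calls, 12 were false. A slide here means arrays with the same scan time, since slides were not read from a label. Alternatives covered normalization, background correction with an offset of 50, filters, the deposited table, slide, scan day and replicate blocks, variance models, array weights and leaving out each array. Of these, leaving out both replicate 1 arrays and quantile normalization within scan day 1 were chosen after seeing the data.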

Additional observations from a re-analysis of the deposited data

Results flagged for a closer look

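Of the 12 member probes, 2 had an array far from the other NPRA+/+ arrays of its group, where chance alone would give about 1 in 20. On the brighter Nfatc3 probe, NPRA+/+ replicate 1 stood at -1.11, with the other NPRA+/+ arrays between -2.29 and -1.96, so that the gap to the nearest array was 0.723 of the range of the group. The same probe was highest on replicate 1 among the NPRA-/- arrays. On the dimmer Nfatc2 probe, NPRA+/+ replicate 4 stood at -5.97, with the others between -5.55 and -5.49 and a gap of 0.871 of the range. That probe was well above background on 3 of the 5 NPRA+/+ arrays. With 5 arrays in a group, a gap above 0.710 of the range marks such an array, and the NPRA-/- group of 3 arrays is too small for the check.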

How the results depend on the processing

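No member passed an adjusted p of 0.05 (0 of 9, limma) under any of 25 alternatives, 23 of them planned and 2 added after the data were seen. Trpc6 was tested under 24 of them, since the filter for probes well above background on all arrays drops its probe. The replicate block by repetition number changed no call of a member. The relative change of Ppp3r1, Ppp3ca, Nfatc2 and Nfatc3 stayed negative, although the fitted change of Ppp3ca, Nfatc2 and Nfatc3 was positive under a few alternatives. Of the relative changes of members, 35 of 224 turned sign, all of Ppp3cb, Rcan1, Nfatc1, Nfatc4 or Trpc6. With quantile normalization Ppp3cb was at 0.127 and Rcan1 at 0.038, and with the deposited table at 0.126 and 0.038. With normexp Nfatc1 was at -0.12, Nfatc4 at -0.19 and Trpc6 at 0.15. With scan day as a block or within scan day 1, Ppp3cb was at 0.064, Nfatc1 at -0.134 and Nfatc4 at -0.210, and with quantile normalization within scan day 1 Ppp3cb was at 0.27, Rcan1 at 0.11, Nfatc1 at -0.063 and Nfatc4 at -0.049. With the replicate block by repetition number Rcan1 was at 0.032 and Nfatc4 at -0.063. Averaging the probes of a gene put Nfatc1 at -0.13 and Nfatc4 at -0.014, with array weights Ppp3cb was at 0.0037, Nfatc1 at -0.12 and Nfatc4 at -0.13, and with no filter Nfatc4 was at -0.011. Without both replicate 1 arrays Nfatc1 was at -0.12 and Nfatc4 at -0.098. Leaving out 1 array gave Nfatc1 -0.115 to 0.094, Nfatc4 -0.084 to 0.079, Ppp3cb -0.143 to 0.017 and Trpc6 -0.41 to 0.16.

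Over all probes, limma called 113 higher and 10 lower in NPRA-/- hearts. The counts were 183 and 10 with no filter, 3 and 0 with probes well above background on all arrays, 5494 and 485 within scan day 1, 8808 and 749 with array weights, 3954 and 180 without both replicate 1 arrays, and 1 and 21 with the replicate block by source name number. Leaving out 1 array gave 0 to 3901 higher and 0 to 187 lower, the highest of both without NPRA+/+ replicate 1. Both counts were 0 with quantile normalization (also within scan day 1), scaling to the median, normexp, the deposited table, slide or scan day as a block, the replicate block by repetition number, averaging NPRA+/+ arrays of one source name number, and trend with robust variance. The causes were not tested. The 3 and 5 arrays limit the precision, and Trpc6 and the dimmer Nfatc2 probe lie near background.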
